A study of Homo sapiens with 15 samples.

Results

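VEGFA, HIF1A, PDGFA, PDGFRB, KIT, RET, MET, SRC, MYB and KDR are 10 human genes of growth factor signalling, angiogenesis and transcription whose promoters are known from in vitro work to hold G-quadruplexes, four-stranded structures in which guanine-rich DNA folds on itself. They were described here in chromatin of K562, an established human leukaemia cell line, among 19820 protein-coding genes. They were chosen by name as genes of that literature, with earlier results of these data known. For each gene all peaks and regions within 1 kb of a start site of a protein-coding transcript, or elsewhere inside the gene, were taken. The labels give no treatment other than formaldehyde fixation, and the cells were all of 1 kind, so the data hold no comparison of conditions. Chromatin was precipitated with BG4, an antibody against G-quadruplexes, and sequenced in 5 libraries, labelled 1a and 1c for replicate 1 and 2a, 2b and 2c for replicate 2. Libraries that share a number were treated as technical libraries of 1 biological replicate, which leaves 2 replicates. The labels do not say whether these came from separate cultures.

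A region was called high-confidence where the peaks of at least 3 of the 5 libraries overlapped, and 8955 such regions were deposited. The libraries held between 8059 (2a) and 12495 (1a) peaks, and a peak lay at the promoter of 31.9% (2a) to 39.0% (2c) of all genes. Peak names inside the files of 2a and 2c bore the letter of the other library. Names here follow the labels, and any value given for 2a could therefore be that of 2c and the reverse. Read numbers were not given, so the depth is unknown, and the copy number of each gene in these cells was not measured. The lists hold positions and peak values alone, so the identity of the cells and the expression of the 10 genes were not analysed here. A missing peak therefore says that none passed the peak caller's threshold in that library, not that no quadruplex formed.

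The 10 genes fall into a few roles. VEGFA is the main growth factor for blood vessels and KDR (VEGF receptor 2) its receptor on endothelial cells. PDGFA is a ligand and PDGFRB a receptor of the platelet-derived growth factor system, which drives the growth of mesenchymal cells. KIT is the receptor for stem cell factor, MET that for hepatocyte growth factor and RET that for the GDNF family, and all of these receptors are tyrosine kinases. SRC is a tyrosine kinase inside the cell that acts below such receptors. HIF1A is the oxygen-regulated subunit of the hypoxia-inducible factor, which binds the VEGFA promoter in low oxygen, and MYB is a transcription factor of blood progenitors. In test-tube studies the G-rich strand of such promoters folds into stacks of guanine tetrads, and the runs of guanine often overlap binding sites of the factor SP1, and such sequences have been proposed to act on transcription.

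The sequences that the results turn on are shown first, from the GRCh37 reference, 5′ to 3′, with capitals for a canonical quadruplex motif. Such a motif has at least 4 runs, each of at least 3 G, and 1 to 7 bases of loop between neighbouring runs, searched on both strands. A loop base could itself be G, so a long run could count as neighbouring runs. A motif of RET and one of SRC thus had only 3 separate runs, the longest of 7 G. On the + strand a motif of the opposite strand appears as runs of C. The first 3 stretches lay under BG4 signal, in the high-confidence regions of HIF1A and SRC and under the shared part of the peaks of MYB, and each is given on the + strand, which is the coding strand of these genes. The MYB stretch stops before the reference start site.
HIF1A promoter region (chr14:62161956-62162226, + strand): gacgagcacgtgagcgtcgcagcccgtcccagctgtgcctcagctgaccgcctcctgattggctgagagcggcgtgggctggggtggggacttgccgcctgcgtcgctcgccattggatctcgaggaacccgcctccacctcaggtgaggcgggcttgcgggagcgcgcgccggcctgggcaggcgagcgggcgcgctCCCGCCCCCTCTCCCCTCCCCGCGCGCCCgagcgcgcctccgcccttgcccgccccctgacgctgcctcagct
SRC intron region (chr20:36013216-36013330, + strand): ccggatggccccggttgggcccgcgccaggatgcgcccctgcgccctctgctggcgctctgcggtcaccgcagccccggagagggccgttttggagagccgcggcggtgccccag
MYB promoter, stretch under both peaks (chr6:135502363-135502445, + strand): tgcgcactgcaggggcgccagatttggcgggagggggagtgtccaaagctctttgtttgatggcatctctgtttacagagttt

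The HIF1A stretch holds a whole motif, with the template strand as its G-rich strand, while those of SRC and MYB hold none. Next to them stand a motif inside the VEGFA gene that a high-confidence region overlapped in part, the motif beside the SRC region, and the paired repeats of GGA near the MYB start site, a sequence known to form a quadruplex without runs of 3 G. In the MYB repeats the capitals mark the GGA units.
VEGFA intron motif (chr6:43739671-43739687, − strand): GGGCGGGGGAGGGCGGG
SRC intron motif (chr20:36013185-36013213, + strand): GGGGCAGCTGGGTCGCTCGGGGAACGGGG
MYB GGA repeats (chr6:135502467-135502493, − strand): GGAGGAGGAGGAgaaGGAGGAGGAGGA

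The last set holds, for the genes without a promoter peak, the motifs in or nearest to the reference start site that no peak of any library touched. They are shown because they match the motif in full and yet had no peak. The KIT promoter has a pair of motifs, both well studied in the test tube.
KIT first motif (chr4:55524002-55524021, + strand): GGGCGGGCGCGAGGGAGGGG
KIT second motif (chr4:55524052-55524073, + strand): GGGAGGGCGCTGGGAGGAGGGG
KDR motif (chr4:55991857-55991879, − strand): GGGTACCCGGGTGAGGGGCGGGG
PDGFA motif (chr7:559529-559572, − strand): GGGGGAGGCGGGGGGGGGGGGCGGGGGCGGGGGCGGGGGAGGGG
PDGFRB motif (chr5:149535510-149535540, + strand): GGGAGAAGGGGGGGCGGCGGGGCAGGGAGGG
RET motif (chr10:43572433-43572482, − strand): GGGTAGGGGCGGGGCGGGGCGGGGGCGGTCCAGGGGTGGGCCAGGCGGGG
MET motif (chr7:116312413-116312431, + strand): GGGCGGGCGGGGCGCTGGG

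A canonical motif lay within 1 kb of a start site in 10 of the 10 genes, against 73.3% of all protein-coding genes. The genes were chosen for known promoter quadruplexes, so a high count was built into the choice. BG4 signal was far less general. A high-confidence region lay at the promoter of VEGFA, HIF1A and SRC, 3 of the 10 genes, while 34.8% of all genes (6904 of 19820) had one. Among the 14530 genes with a motif the share was 40.8%. The count for the 10 genes was thus near the background of all genes, and the list was described and not tested. A peak in at least 1 library lay at the promoter of 4 of the 10 genes, the 4th being MYB, against 47.7% of all genes. MYB was the 1 gene with a promoter peak but no high-confidence region, a state shared by 12.8% of all genes. PDGFRB, RET and SRC, 3 of the 10 genes, had a peak inside the gene away from the start sites (14.8% of all genes), and 0 of the 10 had a high-confidence region there (5.64%). PDGFA, KDR, KIT and MET had no peak of any library at their promoters or inside the gene, and 47.0% of all genes had none.

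By role, promoter peaks lay at 1 of the 2 ligands (VEGFA), at 0 of the 5 receptors, at the kinase SRC and, in part of the libraries for MYB, at both transcription factors. Over all genes 47.7% had a promoter peak in at least 1 library, and groups this small were not compared. In all, 31 peaks lay at 15 places in 6 of the 10 genes. Of these places 8 had a peak in 1 library, 3 in 2 libraries and 4 in 3 or more, and only the outer promoters of VEGFA and HIF1A had a peak in all 5. Library 1a gave 10 of the 31 peaks and library 1c 3, although the lists of both came from replicate 1. Their whole lists held 12495 and 10079 peaks, and both had promoter peaks at VEGFA, SRC and HIF1A. The plot of fold enrichment by place shows the peaks of each gene.

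**Figure D1:**
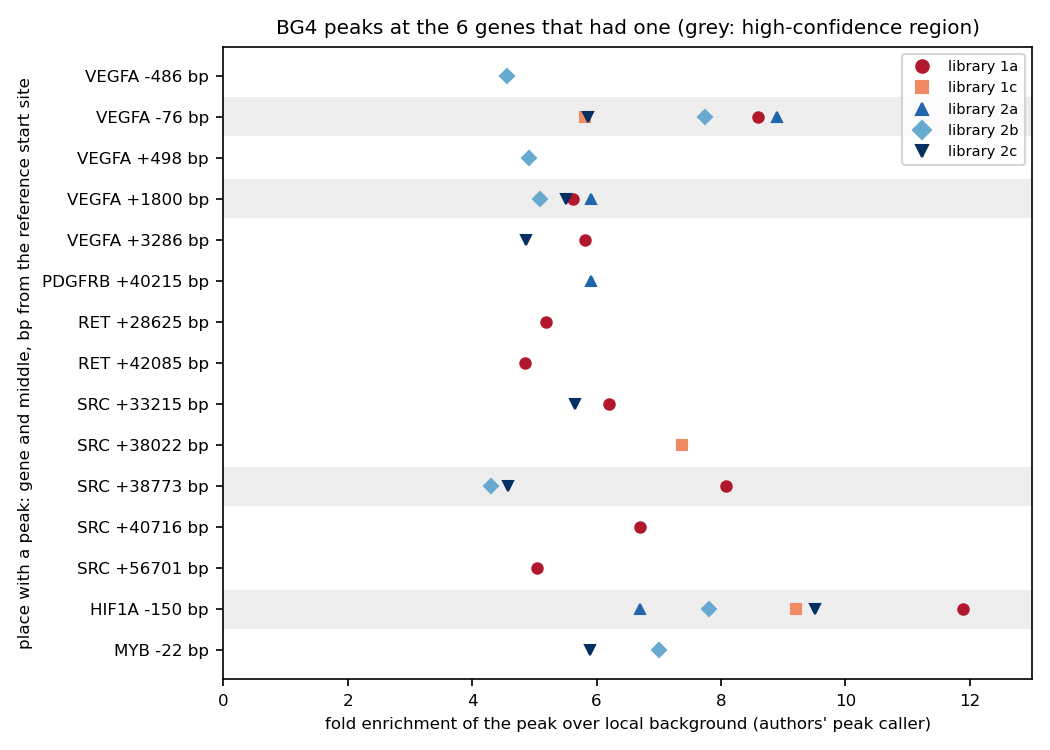
Fold enrichment of each BG4 peak over local background, as the authors' peak caller gave it (x axis), at the 15 places with a peak in the 10 genes (y axis, middle of the place in bp from the reference start site). Each point is 1 library and grey bands mark high-confidence regions; HIF1A reached 11.9 in library 1a, while the places with a peak in 1 library lay between 4.56 and 7.37.

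VEGFA had the most peaks of the 10 genes, 13 at 5 places, and 2 of these places were high-confidence regions. The gene (ENSG00000112715.26, chr6:43737921-43754224, + strand) has 10 start sites. The outer region (chr6:43737774-43737975, 202 bp) covered the reference start site at 43737948 and reached from upstream sequence into the 5′ UTR. Its fold enrichment, the height of a peak over the local background, came to 8.59 for library 1a and 5.81 for 1c, and to 8.89, 7.75 and 5.86 for 2a, 2b and 2c. Both replicates thus held a high and a low library, and their means of 7.20 (replicate 1) and 7.50 (replicate 2) lay close together, with an overall mean of 7.35 ± 0.21 (SD, n = 2). Within its own list the peak stood at percentile 72.5, 34.5, 81.0, 75.3 and 46.3 of fold enrichment in the same order of libraries. The VEGFA promoter peak therefore stood below the middle of the list in 1c and 2c and in the upper part in the others. The region was 74.3% GC, held 4 boxes of GGGCGG (the core of an SP1 site, searched on both strands, which can overlap a motif) and lay within 1 kb of a start site of the non-coding gene ENSG00000272114, so the signal cannot be assigned to VEGFA alone.

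The motif in the outer VEGFA region, on the coding strand, lay at −88 to −58, counted in bp from the reference start site with minus for upstream. The highest point of the peak, its summit, lay at −63 for 1a, −45 for 1c, −80 for 2a, −75 for 2b and −62 for 2c. In 4 of the 5 libraries the summit fell inside the motif, and in 1c it lay 13 bp from it. Across all promoter regions that overlapped a motif and had a peak, the summit lay in a motif in 13.2% (1c) to 14.4% (1a) of cases. That is a share of regions, while the 5 libraries here all read 1 region, so the numbers are not alike. Among the regions of the 10 genes that overlapped a motif, the outer VEGFA region had summits in it. The inner VEGFA region and that of HIF1A had none.

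A second VEGFA region (chr6:43739678-43739807, 130 bp, 79.2% GC) lay at a start site inside the gene, at 43739729, across intron and 5′ UTR. Libraries 1a, 2a, 2b and 2c had a peak there, with fold enrichments of 5.61, 5.91, 5.09 and 5.51, and 1c had none. These values were lower than at the outer start site in each of the 4 libraries and stood between percentile 24.2 and 37.5 of their lists. The region overlapped part of the VEGFA intron motif, whose loops are all of 1 base, and the summits lay 7 to 74 bp from that motif. Library 2b alone had weak peaks upstream (chr6:43737415-43737509, fold enrichment 4.56) and across 5′ UTR and coding exon (chr6:43738397-43738495, fold enrichment 4.92). Libraries 1a and 2c shared a place in an intron (chr6:43741141-43741328) with fold enrichments of 5.82 and 4.86, and no motif lay under it. Of the 8 motifs at VEGFA start sites, 2 lay under a region and 6 under no peak.

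PDGFA, the other ligand, had no peak in any library. The gene (ENSG00000197461.13, chr7:536895-559933, − strand) has 4 start sites and 9 motifs around them, more than VEGFA. The motif shown above lay at −89 to −46 from the reference start site, about as far from it as the VEGFA motif from its own, and both have their G runs on the coding strand. Within 500 bp of the reference start site PDGFA was 79.1% GC, at percentile 99.0 of all genes, and VEGFA 61.6%, at percentile 51.7. Both ligands stood in the class of 8 or more motifs, where 48.4% of all genes had a region. In their GC classes the share was 43.7% for VEGFA and 49.8% for PDGFA. VEGFA also has more start sites, 10 against 4, around which a peak could count. The contrast between the ligands was not tested.

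HIF1A had the strongest promoter peak of the 10 genes. The gene (ENSG00000100644.17, chr14:62162231-62214977, + strand) has 4 start sites, and its region (chr14:62161956-62162226, 271 bp, 75.3% GC) lay upstream and ended 5 bp before the reference start site. Fold enrichment was 11.9 for 1a, 9.21 for 1c, 6.70 for 2a, 7.81 for 2b and 9.52 for 2c. The peak stood at percentile 92.2, 84.9, 48.8, 78.3 and 91.0 of the lists, so that library 2a was the low one. The replicate means were 10.6 and 8.01, and their mean was 9.28 ± 1.80 (SD, n = 2). HIF1A lay above the outer VEGFA region in 4 of the 5 libraries and below it in 2a, and the ranges of the 2 genes overlapped. The difference between them was smaller than the range of HIF1A over the libraries, and it was not tested.

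The HIF1A motif in the region lay at −77 to −49 from the start site, with its G runs on the template strand. The summits lay between −192 (2b) and −131 (1a), which was 54 to 115 bp from the motif. So all 5 peaks covered the motif, but none was centred on it. The region held 3 GGGCGG boxes. The non-coding antisense gene HIF1A-AS1 also has a start site within 1 kb, and precipitated DNA does not tell the strand, so the region cannot be assigned to either gene. A second motif, 358 to 387 bp downstream of the reference start site, lay under no peak.

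**Figure D2:**
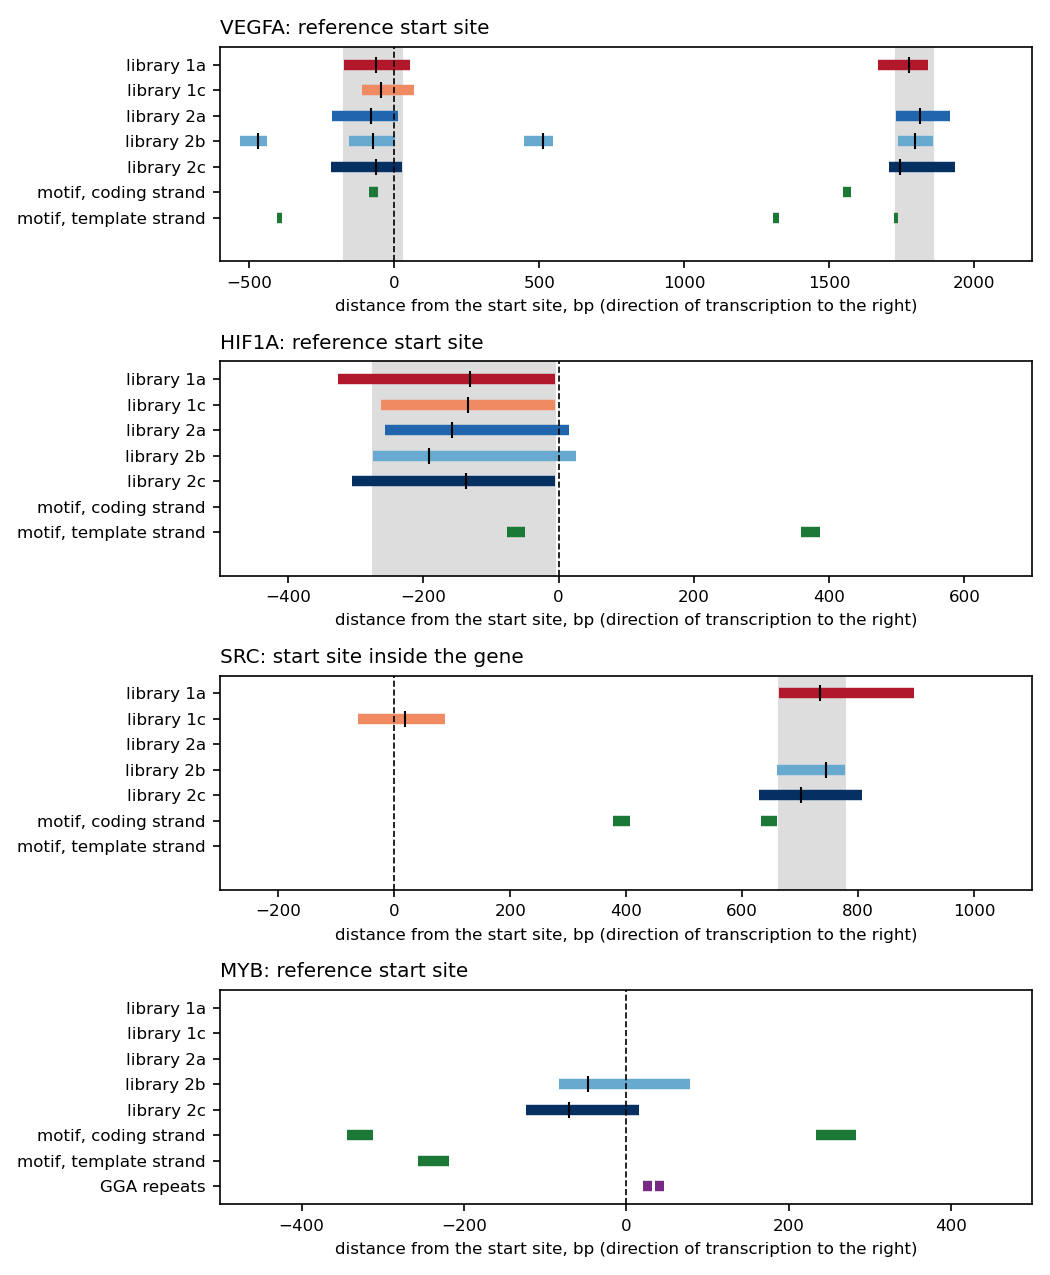
Peaks of each library (coloured bars, summit as a black tick), high-confidence regions (grey) and canonical motifs (green) at VEGFA, HIF1A, SRC and MYB, with GGA repeats (purple) for MYB, by distance in bp from the start site named above each map (x axis). At VEGFA the summits of 4 libraries sit in the motif at −88 to −58, at HIF1A they sit upstream of the motif, and at SRC and MYB no canonical motif lies inside the region or under both peaks.

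SRC had its region at a start site inside the gene and not at the outer one. The gene (ENSG00000197122.13, chr20:35973088-36034453, + strand) has 4 start sites, and its reference start site at 35974543 had no peak in any library. The region (chr20:36013216-36013330, 115 bp, 77.4% GC) lay in an intron, 663 bp downstream of the start site at 36012553. Fold enrichment was 8.08 in 1a, 4.29 in 2b and 4.57 in 2c, and 1c and 2a had no peak there. Library 1a was thus far above the other 2 libraries, and its peak stood at percentile 67.2 of the list against 9.24 in 2b and 16.6 in 2c. The mean over replicates, taken only over libraries with a peak there and so leaving out 1c and 2a, was 6.26. Without 1a, which leaves replicate 2 alone, it was 4.43. SRC was the only member just inside the limit of 3 libraries, and the region was lost when 1a, 2b or 2c was left out.

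Library 1c had a peak at SRC of its own, which covered the start site at 36012553 (chr20:36012490-36012641, fold enrichment 7.37, percentile 65.3). With it 4 of the 5 libraries had a peak within 1 kb of that start site, at 2 places that did not overlap. The SRC region held no motif and no GGGCGG box. The SRC intron motif shown above ended 2 bp before it, and the peaks of 2b and 2c touched that motif while the peak of 1a did not. Further peaks in SRC lay at chr20:36007642-36007874 in an intron (1a and 2c, fold enrichment 6.20 and 5.65), at chr20:36015150-36015368 in an intron (1a, 6.69) and at chr20:36031176-36031313 across intron and coding exon (1a, 5.04). SRC had 13 motifs, the most of the 10 genes. The 11 around the outer start sites lay under no peak, and so did 2 repeats of GGA units there.

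MYB lay just outside the limit, with a peak in 2 libraries. The gene (ENSG00000118513.20, chr6:135502446-135540311, + strand) has 8 start sites. The peaks covered the reference start site in 2b (chr6:135502363-135502525, fold enrichment 7.01, percentile 64.9) and in 2c (chr6:135502323-135502462, fold enrichment 5.89, percentile 47.6), both of replicate 2. The 2 libraries of replicate 1 and library 2a had none. Where a region needed 2 libraries and not 3, MYB joined VEGFA, HIF1A and SRC, and the share of all genes with a region rose to 40.5%. The summits lay at −71 (2c) and −47 (2b) from the start site.

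MYB peaks lay on none of its 4 canonical motifs. The nearest ones lay at −256 to −219 and at 234 to 283 from the reference start site. The GGA repeats of MYB, 21 to 47 bp downstream with their G bases on the template strand, lay under the peak of 2b and outside that of 2c. Another such repeat, 993 bp downstream, lay under no peak. Repeats of at least 4 GGA units in a row lay within 1 kb of a start site in 3 of the 10 genes (PDGFA, SRC and MYB) and in 5.65% of all genes. Those of PDGFA and SRC lay under no peak.

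The receptors had no peak at any start site, while 47.7% of all genes had one in at least 1 library. KDR (ENSG00000128052.10, chr4:55944648-55991762, − strand) has 1 start site and 1 motif, at −117 to −95 from it. KIT (ENSG00000157404.17, chr4:55523434-55606949, + strand) has 9 start sites and 2 motifs, which lay at −122 to −103 and −72 to −51 from the reference start site on the coding strand. MET (ENSG00000105976.16, chr7:116312250-116438431, + strand) has 3 start sites and 3 motifs, the first of them 163 to 181 bp downstream of the reference start site in the 5′ UTR. None of these 6 motifs of KDR, KIT and MET lay under a peak of any library.

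RET and PDGFRB had peaks inside the gene, each in 1 library. RET (ENSG00000165731.21, chr10:43572512-43625799, + strand) had intron peaks in 1a alone, at chr10:43601076-43601208 (fold enrichment 5.18) and chr10:43614539-43614665 (fold enrichment 4.84). They stood at percentile 17.1 and 11.5 of that list, and the summit of the first lay 1 bp from a motif. The RET promoter, with 8 motifs and 3 of them in the stretch before the start site, was 76.9% GC (percentile 97.4 of all genes) and had no peak. PDGFRB (ENSG00000113721.14, chr5:149493402-149535435, − strand) had a peak in 2a alone, in the 3′ UTR (chr5:149495127-149495259, fold enrichment 5.91, percentile 32.2), over no motif. These peaks were all in the weaker part of their lists.

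Taken motif by motif, the 10 genes held 55 motifs of 16 to 53 bases, with 28 on the coding strand. A high-confidence region overlapped 3 of them (5.45%), 2 at VEGFA and 1 at HIF1A, and 2 of these lay whole inside it. Over all genes 8.62% of 48875 promoter motifs lay under a region. A peak of any library overlapped 4 of the 55 (7.27%), the 4th being the SRC intron motif, against 14.2% of all promoter motifs. Close to the reference start site, from 250 bases before it to 50 after, the 10 genes held 12 motifs, of which those of VEGFA and HIF1A, 2 in all, lay under a region. Over all genes the share in that window was 30.3% of 8663 motifs. A loop of 1 base was present in 39 of the 55 motifs, among them the 3 under a region and most of those under no peak.

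**Figure D3:**
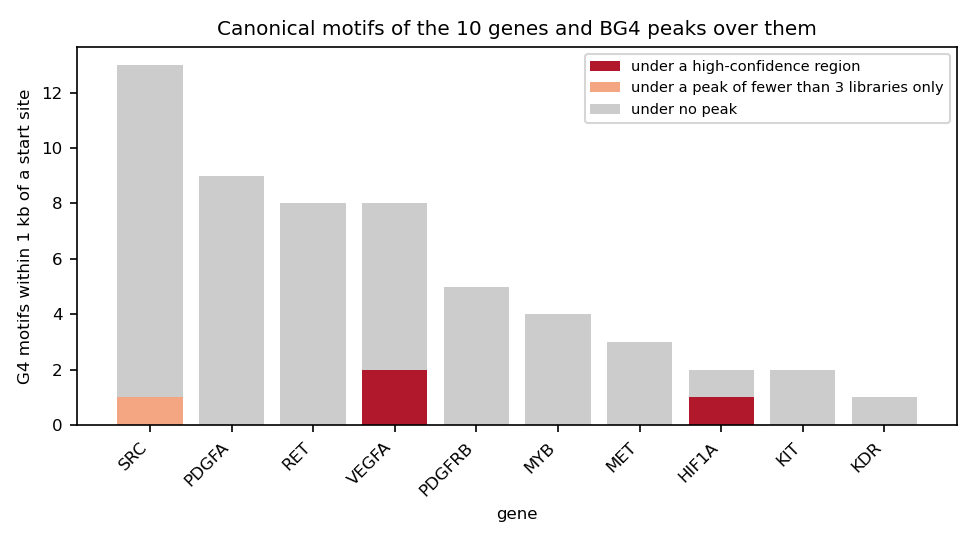
Number of canonical motifs within 1 kb of a start site of each of the 10 genes (y axis), coloured by whether a high-confidence region, only a peak of fewer than 3 libraries, or no peak lay over them. VEGFA had 2 of 8 motifs under a region, HIF1A 1 of 2, SRC 1 of 13 under peaks of 2 libraries, and the others 0.

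The 10 promoters differed among themselves, from 59.2% GC at PDGFRB to 79.1% at PDGFA and from 1 motif at KDR to 13 at SRC. The median number of motifs per gene was 4.5, against 2 over all genes, and the median GC content within 500 bp of the reference start site was 69.7% against 61.3%. The median number of start sites was 4 against 3. A motif lay in the window from 250 bases before to 50 after the reference start site in 8 of the 10 genes, all but MET and MYB, and in 33.3% of all genes. The choice of genes with known promoter quadruplexes bears on these motif numbers. A GGGCGG box lay in that window in 10 of the 10 and in 61.2% of all genes. The number of boxes there was 5 at VEGFA, 4 at PDGFA and RET, 3 at MET and HIF1A, 2 at KDR, PDGFRB and SRC, and 1 at KIT and MYB.

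Promoter GC and CpG content were compared in the same way, since the share of genes with a region differed with both. A promoter counted as CpG-rich if its GC content reached 55% and its CpG number reached 0.65 of that given by its C and G content. Of the 10 genes 9 were CpG-rich, the exception being PDGFRB with 59.2% GC and a CpG ratio of 0.285. Among all CpG-rich genes 51.8% of 11173 had a high-confidence region, and among the others 12.9% of 8647. Among the 9704 CpG-rich genes that also held a motif the share was 52.0%. In numbers, 5048 of these 9704 genes had a region, and 5789 of all 11173 CpG-rich genes. The smaller set is part of the larger one, and the share with and without a motif was not tested. Of the 9 CpG-rich genes VEGFA, HIF1A and SRC had a region, which leaves PDGFA, KDR, KIT, RET, MET and MYB without one. GC and CpG content were taken at the reference start site, and the middle of the SRC peaks that form its region lay 38773 bp downstream of that site, so they do not describe the promoter that carries the SRC region. With the reference start site only, 2 of the 10 genes had a region, VEGFA and HIF1A.

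By number of motifs, 34.4% of genes with 1 motif had a region, the class of KDR, and 39.1% of those with 2, the class of KIT and HIF1A. The share was 43.1% for 3 to 4 motifs (MET and MYB), 45.3% for 5 to 7 (PDGFRB) and 48.4% for 8 or more (VEGFA, PDGFA, RET and SRC). Genes with more motifs also have more start sites, with a median of 6 in the last class against 3 in the class of 1 motif. The share differed with GC content too, and motif number was not separated from it. The part of either in the rise was not tested. By GC content, the share went from 3.72% below 50% GC to 53.3% between 70% and 75%, the class of KIT, SRC and MYB, and was 49.8% at 75% and above, the class of PDGFA and RET. In each class that held more than 1 of the genes, some had a region and others did not, except for MET and MYB by motif number and PDGFA and RET by GC content, where none did. For SRC the GC class is again that of the outer start site, which had no peak.

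**Figure D4:**
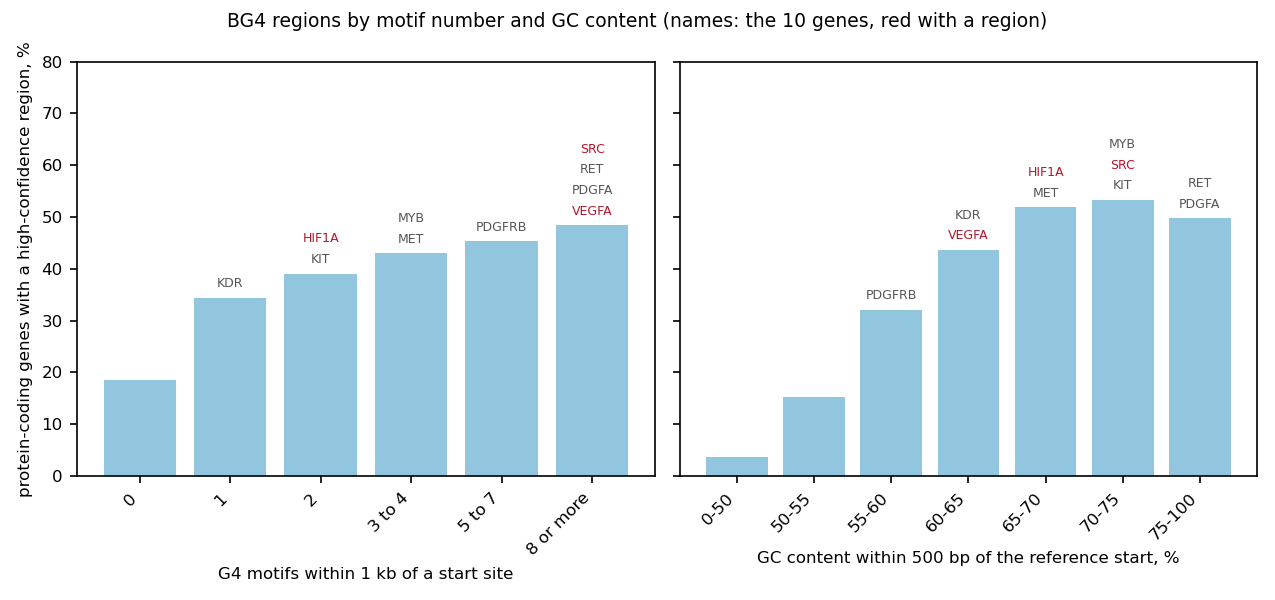
Share of protein-coding genes with a high-confidence region within 1 kb of a start site (y axis, %), by number of canonical motifs there (left) and by GC content within 500 bp of the reference start site (right). Names above the bars place the 10 genes, in red those with a region; the share was 18.5% with 0 motifs and 48.4% with 8 or more, and VEGFA, HIF1A and SRC stood in different classes of GC content, that of SRC being taken at its outer start site, which had no peak.

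The genes that work with the 10 were described from 7 lists of 78 genes other than the 10. Of these 23 (29.5%) had a high-confidence region at the promoter, against 34.8% of all genes, while 69 held a motif. A further list held other genes with a well-known promoter quadruplex and is not in these counts. Fold enrichments below are those of the strongest peak of each library over the regions of a gene. Differences between lists were not tested. Among the other VEGF and PDGF ligands and receptors 0 of 12 had a region, although 11 of them held a motif. FLT1 (VEGF receptor 1) and the co-receptor NRP1 had no peak in any library. VEGFB, named after its values were seen, was the only 1 of these with a promoter peak, in 2 libraries. VEGFA was thus the 1 gene with a region among the ligands and receptors of both systems examined here, PDGFA, PDGFRB and KDR included.

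Genes of the oxygen response, the pathway of HIF1A, had regions in both lists examined. The share with a region was 34.8% over all genes and 51.8% over CpG-rich genes, and differences from these were not tested. Of 9 genes of oxygen sensing other than HIF1A, 5 had a region (55.6%). EGLN2, a prolyl hydroxylase that marks HIF for destruction, had it at a start site (chr19:41304749-41305134) with fold enrichments from 6.35 to 15.0 over 5 libraries. ARNT, the partner subunit of HIF1A, had 5.24 to 13.3 over 5 libraries, and EPAS1 (HIF-2α) 5.08 to 10.0 over 3. EGLN1, another prolyl hydroxylase, had 2 regions and fold enrichments from 3.59 to 9.66, and VHL, outside the naming rule, had 1 in 4 libraries. ARNT2 and HIF1AN had no peak. Of 10 HIF target genes 6 had a region, among them PDK1, a kinase that inhibits pyruvate dehydrogenase (8.81 to 11.4), the hexokinase HK2 (5.81 to 8.83), the glucose transporter SLC2A1 (4.28 to 14.4) and the enolase ENO1 (3.88 to 9.45), each in 5 libraries. BNIP3 and LDHA, outside the naming rule, also had one, while CA9 and EPO had no peak.

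Other receptor tyrosine kinases had a region at 7 of 26 promoters (26.9%, against 34.8% of all genes). FGFR4 (7.65 to 12.2), FGFR3 (5.98 to 9.74), IGF1R (5.55 to 7.57) and MST1R (3.90 to 9.87), a close relative of MET, each had one with a peak in 5 libraries. ALK, DDR1 and INSR, outside the naming rule, had one too, and AXL and CSF1R, a relative of KIT, had no peak. Among the ligands and co-receptors of KIT, MET and RET 1 of 10 had a region, namely the RET ligand NRTN (8.98 to 11.2 over 5 libraries), although 10 of 10 held a motif. The NRTN region lay at −818 bp from the nearest NRTN start site, so a promoter of 500 bp would leave it out. GDNF and its co-receptor GFRA1 had no peak.

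In the SRC family and its regulator 3 of 9 genes had a region (33.3%, against 34.8% of all genes). These were YES1 (4.02 to 11.6 over 5 libraries), FYN (5.75 to 9.01 over 4) and LYN (up to 7.03 over 3), while BLK and FGR had no peak. Of the 2 relatives of MYB, MYBL1 had a region with a peak in 5 libraries (5.54 to 11.8), and MYBL2, outside the naming rule, had a peak in 1 library. Among other genes with a well-known promoter quadruplex HRAS (8.20 to 13.1 over 5 libraries) and MYC (5.40 to 6.86 over 4) had a region, and BCL2 had no peak. Of the 7 canonical motifs of MYC 0 lay under its region, and of the 12 of HRAS 1 lay under a region. TERT, outside the naming rule, had no promoter peak, and RB1, also outside it, had one in 1 library. The highest value of HRAS lay above the highest of VEGFA, which was 8.89.

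**Figure D5:**
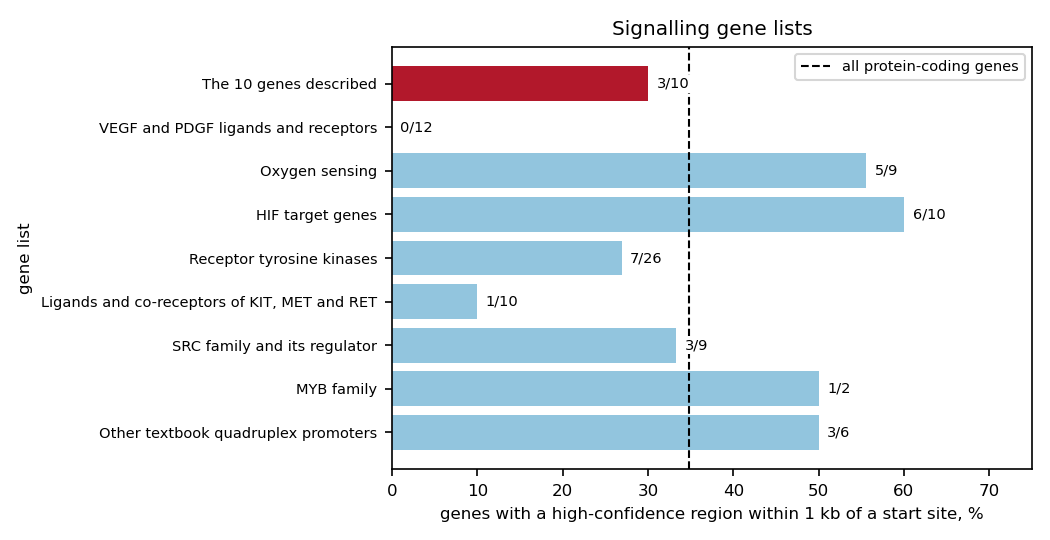
Share of genes with a high-confidence region within 1 kb of a start site (x axis, %) in the 10 genes (red) and in 8 lists of related genes (blue), with the counts beside each bar and the share over all protein-coding genes as a dashed line (34.8%). Oxygen sensing (5 of 9) and HIF targets (6 of 10) stand to the right of the line, and the other VEGF and PDGF ligands and receptors had 0 of 12. Differences between lists were not tested.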

How the data were processed

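BG4 ChIP-seq of K562 was analysed as 5 deposited peak lists and 1 deposited list of high-confidence regions. Peaks were called with MACS2 on hg19, per the submitters' processing notes. The sources used here do not give its version and settings, the aligner or the control. The authors' fold enrichment is a ratio over local background at the summit, and the deposited −log10 p and −log10 q belong to the same peak. The deposited score was not used. The high-confidence list was identical to the stretches covered by 3 or more of the 5 lists, and its deposited positions carry no values. Input and HaCaT bisulfite libraries were not analysed here. Because depth is unknown, no interval is given.

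Protein-coding transcripts gave the start sites, from GENCODE release 44 mapped to GRCh37, the promoter was 1 kb on either side, and the reference start site that of the Ensembl canonical transcript. An overlap of 1 base counted, and a motif had to lie whole within 1 kb of a start site. The mitochondrial chromosome was left out. Positions count from 1. Percentiles rank fold enrichment within 1 list. Technical libraries were averaged within a replicate first (n = 2). Python 3.11.15, pysam 0.24.0 and matplotlib 3.10.9 were used, and motif search and overlaps were tested on simulated data.

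The members and the lists were chosen with earlier results of these data known, so no test was run over them. From each list up to 4 genes with a region were named, those with the highest lowest percentile over the libraries, and the first 2 in alphabetical order without a peak. One gene that the rule took and 1 promoter sequence are not reported here. Alternatives changed the promoter width, start sites, peak threshold, number of libraries, overlap and motif rule, and left out each library in turn.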

Additional observations from a re-analysis of the deposited data

How the results depend on the processing

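VEGFA and HIF1A had a high-confidence promoter region under all 13 alternatives tried for that count. SRC lost its region with a promoter of 500 bp, with the reference start site only, with peaks of −log10 p of 10 or more, with regions of all 5 libraries, and without 1a, 2b or 2c, where the count was 2. MYB gained one with regions in 2 or more libraries, where it was 4. Leaving out 1 library gave 2 to 3 genes. The count of genes with a peak away from start sites was 0 with high-confidence regions only, 1 with peaks of −log10 p of 10 or more, and 2 to 3 with a library left out, against 3. Of the 78 signalling genes 14 had a region in all 5 libraries, against 23, and 20 to 23 with a library left out. Over all genes the share with a region was 22.0% with all 5 libraries and 24.9% with the stricter peaks. The fold enrichment at the outer VEGFA region was 6.66 to 8.04 with a library left out. No result reversed. No paired analysis was possible because the results come from no test. Unknown depth and copy number limit any reading of a missing peak.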
